A study of Mus musculus with 6 samples.

Results

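The nuclear-encoded subunits of the mitochondrial respiratory chain were followed in mouse lung fibroblasts after knockdown of Wt1, the Wilms' tumor 1 transcription factor. Members were taken by gene symbol from a table of read counts. They were the Ndufa, Ndufb, Ndufc, Ndufs and Ndufv genes with a number and Ndufab1 (complex I), Sdha to Sdhd (complex II), 9 named subunits of complex III, and every symbol that begins with Cox4i, Cox5, Cox6, Cox7 or Cox8 (complex IV). The rule found 68 genes among 24061 rows, of which 37 belong to complex I, 4 to complex II, 9 to complex III and 18 to complex IV. The rule itself uses no measured value, but it was set with earlier results of these data known. Ndufb1 and the subunits encoded by mitochondrial DNA were not analysed here. Assembly factors (the Ndufaf genes) and Ndufa4l2, a gene with a name close to the rule, are not members.

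All 6 libraries came from resident fibroblasts of the fibrotic lungs of TGF-alpha transgenic mice, kept in culture, so every control also carries the transgene. The sources used here do not give the promoter of the transgene, the age of the animals, the time after transfection or the siRNA sequences. Controls were 3 libraries of cells given a stealth control siRNA (libraries 1 to 3), and the knockdown group was 3 libraries of cells given a stealth siRNA against Wt1 (libraries 4 to 6). It is not stated if replicate libraries were made from different animals or cultures, so p-values measure the spread between these libraries, which may be technical. Libraries held between 26141921 and 32085698 counts. Pairs of libraries of 1 group differed by more than sampling noise, with a chi-square per degree of freedom of 18.9 to 70.9, so none was treated as a duplicate.

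The respiratory chain is a series of protein complexes in the inner mitochondrial membrane. Complex I takes electrons from NADH and complex II from succinate, complex III passes them from ubiquinol to cytochrome c, and complex IV hands them to oxygen. Complexes I, III and IV pump protons as they do so, and ATP synthase uses the resulting gradient. Complexes I, III and IV combine subunits from the nucleus and from mitochondrial DNA, whereas complex II is encoded in the nucleus alone. Several complex IV subunits exist as isoforms that are used in muscle, testis or lung.

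Upstream sequence was examined because nuclear respiratory genes share binding motifs for a few transcription factors, among them NRF1 and the ETS family factor NRF-2 (GABP), and because the knocked-down protein is itself a DNA-binding factor. The 250 bases before the start were taken from the RefSeq promoter windows of GRCm38.p6, which held 56 windows for 54 of the 68 members. The NRF1 motif (GCGCA and GCGC with any 1 base between them), searched on both strands like all the others, was in 10 of the 56 windows (17.9%), from 9 genes, against 3.74% of all 32851 windows and 7.44% of the windows of the genes tested. The 9 genes were Cox6a1, Ndufa5, Ndufa8, Ndufa11, Ndufb4, Ndufs5, Ndufs6, Sdha and Sdhd. The ETS motif CCGGAAG was in 8 windows (14.3%), against 6.91% of all windows and 12.6% of those of tested genes. The YY1 motif AAGATGG was in 0 windows, against 4.49% of all windows and 4.20% of those of tested genes. Bases after the start were not searched for this or any other motif, so matches there would be missed. The motif TNAAGGTCA of the estrogen-related receptors was in 1 window (1.79%), that of Ndufb4, against 1.14% and 0.717%. The WT1 motif GCGTGGGNG was in 1 window (1.79%), against 1.65% of all windows and 2.71% of those of tested genes. That window belongs to Cox5a. A match is a description of the letters and not of a binding site, and none of these motifs overlapped another in the sequences shown. These 3 windows are printed because Cox5a was the 1 member that rose, Ndufv3 was the 1 member that fell, and Cox6a1 carries both respiratory motifs. Sdhd, which is not printed, also carries both. Capitals mark the motif matches.
Cox5a, chr9:57520982-57521231, plus strand: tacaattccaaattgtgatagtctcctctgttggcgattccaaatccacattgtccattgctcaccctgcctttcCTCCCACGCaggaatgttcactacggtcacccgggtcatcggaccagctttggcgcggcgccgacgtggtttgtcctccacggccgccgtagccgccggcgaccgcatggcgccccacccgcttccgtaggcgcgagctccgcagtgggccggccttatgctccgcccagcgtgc
Ndufv3, chr17:31519865-31520114, plus strand: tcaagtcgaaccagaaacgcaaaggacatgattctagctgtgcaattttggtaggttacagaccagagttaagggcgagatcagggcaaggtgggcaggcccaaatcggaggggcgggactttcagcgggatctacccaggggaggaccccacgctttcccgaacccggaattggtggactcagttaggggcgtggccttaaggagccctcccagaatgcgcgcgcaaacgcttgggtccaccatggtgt
Cox6a1, chr5:115348959-115349208, minus strand: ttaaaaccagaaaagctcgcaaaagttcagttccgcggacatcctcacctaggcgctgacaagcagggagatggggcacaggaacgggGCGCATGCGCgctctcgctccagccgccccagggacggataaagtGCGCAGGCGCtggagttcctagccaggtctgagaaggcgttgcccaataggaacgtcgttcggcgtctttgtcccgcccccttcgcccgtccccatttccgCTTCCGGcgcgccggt
The capitals in the Cox5a window are the reverse complement of the WT1 motif and begin 175 bases before the start. The window lies within the annotated span of Cox5a (chr9:57517328-57532427), which begins further upstream. The Ndufv3 window held none of the motifs searched. In the Cox6a1 window the capitals mark a pair of NRF1 matches that begin 162 and 117 bases before the start and an ETS match that begins 16 bases before it.

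Values are given as counts per 1000000 counts (CPM) after scaling by edgeR's trimmed mean of M values (TMM). Wt1 itself read 48.8, 55.7 and 51.5 CPM with the control siRNA, and 11.4, 8.63 and 7.92 CPM with the siRNA against it. It was lower in every knockdown library, by 2.48 ± 0.16 on the log2 scale (standard error, 5.59-fold; edgeR quasi-likelihood test, adjusted p = 5.98e-06). Fibroblast markers were abundant, summing to 21201 to 30443 CPM in controls and 32962 to 40187 CPM after the siRNA, and of the 9 markers 5 rose and 2 fell (Col3a1 and Pdgfra). The lung epithelial gene Scgb1a1 and the T-cell gene Cd3e were at 0 in all libraries, and the leukocyte markers summed to 21.2 to 29.3 CPM in controls and 22.4 to 29.0 CPM in the knockdown. Summed epithelial markers were 47.2 to 64.2 CPM in controls and 40.3 to 46.6 CPM after the siRNA, and summed mesothelial markers 121 to 151 CPM and 89.6 to 118 CPM, both without overlap. The endothelial markers (98.5 to 122 and 80.3 to 99.1 CPM) and those of smooth muscle and pericytes (298 to 351 and 262 to 330 CPM) overlapped between the groups. Of the epithelial, endothelial, mesothelial, leukocyte, smooth muscle and striated muscle lists, 1 of 5, 1 of 6, 2 of 4, 0 of 4, 0 of 5 and 0 of 2 genes tested fell, and 0, 0, 2, 0, 0 and 0 rose. No erythroid or brown adipocyte marker passed the filter. The part of these cell type differences in the results below was not tested. In bulk RNA, fewer cells of a type and less RNA per cell cannot be told apart.

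The respiratory chain subunits changed little. Of the 68 genes, 63 passed the filter on low counts, and of these 1 rose (Cox5a), 1 fell (Ndufv3) and 61 did not pass the adjusted threshold of 0.05 (edgeR quasi-likelihood test with Benjamini-Hochberg adjustment over 14190 genes). Among all genes tested, 19.3% were called, 1284 (9.05%) as higher and 1459 (10.3%) as lower. The share called among the subunits was 3.17%. Without TMM factors (library size scaling), 855 genes (6.03%) were called higher and 1829 (12.9%) lower, and the subunits again gave 1 and 1. Calls over all genes were fewer in each fit with 1 library left out, at 14.8, 18.3 and 13.3% without control libraries 1, 2 and 3 and at 9.33, 13.1 and 16.2% without knockdown libraries 4, 5 and 6. At an unadjusted p under 0.05, 8 subunits were higher and 1 was lower, against 15.6% and 16.5% of all genes, 32.1% in either direction.

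The differences that were measured were small, and more of them were upward than downward. The median log2 fold change over the 63 subunits was 0.12, with quartiles of -0.027 and 0.24, beside a median of 0.0035 and quartiles of -0.31 and 0.27 over all genes tested. The sign was positive for 45 subunits (71.4%) and negative for 18, against 50.4% positive over all genes tested. An upward lean was not particular to the subunits. Positive signs made up 86.1% of 79 cytosolic ribosomal protein genes and 80.0% of 15 ATP synthase genes, but 23.5% of 17 glycolysis genes. With library size scaling 37 subunits were positive and their median was 0.046, while that of all genes was -0.082. Without knockdown library 6 the count was also 37 and the median 0.078. The 95% interval of the difference lay within a 2-fold change in either direction for 61 of the 63 subunits and within a 1.5-fold change for 38. Over all genes tested these counts were 9532 and 5150 of 14190. The 2 subunits with wider intervals were Ndufv3 and Cox7a1, the latter at under 1 CPM in every library.

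**Figure D1:**
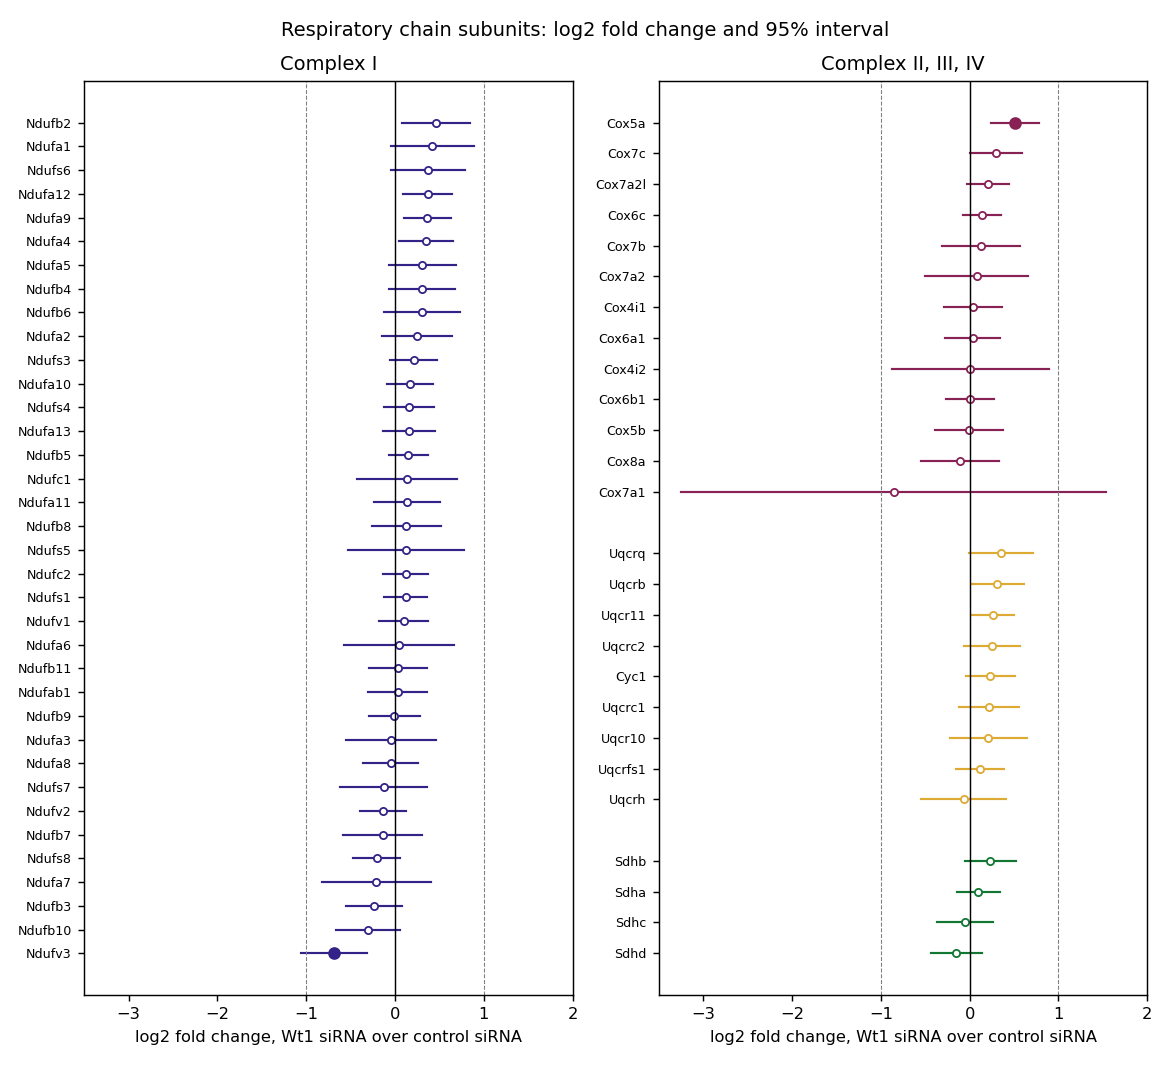
Log2 fold change of 62 of the 63 subunits tested (Wt1 siRNA over control siRNA), as points with 95% intervals, by complex. Filled points passed the adjusted threshold of 0.05, and dashed lines mark a 2-fold change. Cox5a (0.51) and Ndufv3 (-0.69) are the only filled points, and the widest interval is that of Cox7a1.

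Summed over all 68 members, the subunits came to 3642, 3621 and 3568 CPM in libraries 1 to 3 (control) and 3836, 3977 and 4186 CPM in libraries 4 to 6 (Wt1 siRNA). The groups did not overlap, with means of 3610 ± 37.9 and 4000 ± 176 (SD, n = 3) and a ratio of 1.11. This separation depended on the scaling. As a percent of all counts, without TMM factors, the members took 0.388, 0.364 and 0.363% in controls and 0.375, 0.374 and 0.417% in the knockdown, so that control library 1 lay above knockdown libraries 4 and 5, and the ratio was 1.04. By complex, on the TMM scale, the ratio was 1.09 for complex I (1650 ± 18.3 to 1805 ± 81.9 CPM), 1.03 for complex II (340 ± 16.5 to 349 ± 24.6 CPM), 1.15 for complex III (543 ± 7.76 to 623 ± 24.5 CPM) and 1.13 for complex IV (1077 ± 37.0 to 1222 ± 69.2 CPM), each ± SD with n = 3. On the TMM scale the summed levels of complexes I, III and IV did not overlap between the groups, whereas those of complex II did. As a percent of all counts, control library 1 lay above knockdown library 4 in complexes I (0.174 and 0.171%), III (0.0587 and 0.0584%) and IV (0.117 and 0.112%). Abundant members weigh most in these sums. The mean of Cox5a went from 199 to 284 CPM and that of Ndufa4 from 203 to 259 CPM. With Cox5a left out, the summed levels of complex IV overlapped between the groups. With Ndufa4 left out, those of complex I also overlapped, by a narrow margin. The separation in these complexes thus rested on single genes. Of the tested members, 25 of 37 in complex I and 10 of 13 in complex IV had a positive log2 fold change.

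**Figure D2:**
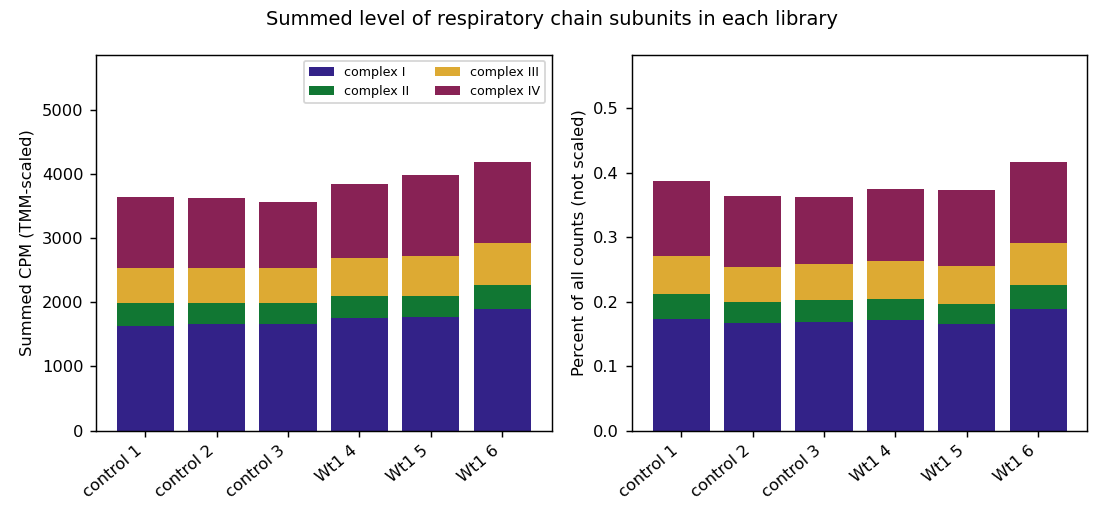
Summed level of the subunits in each library, stacked by complex, as CPM after TMM scaling (left) and as a percent of all counts without scaling (right). On the left the 3 knockdown libraries (3836 to 4186) stand above the 3 controls (3568 to 3642), and on the right they overlap.

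Complex I is the entry point for electrons from NADH, and its subunits divide into a conserved catalytic core and supernumerary subunits that surround it. Of the 37 members, none rose and 1 fell. The count of higher genes was 3 (Ndufa4, Ndufa9 and Ndufb2) with an offset for the GC content of the transcripts, which called 10.6% of all genes higher, and 2 with DESeq2 (Ndufa9 and Ndufa12), which called 11.1%. It was 2 without control library 1 (Ndufa9 and Ndufb2), 1 without knockdown library 5 (Ndufa4), 1 with a length offset (Ndufa4, 9.25% of all genes) and 1 with a stricter filter on low counts (Ndufa9, 10.9% of the genes left). The count of lower genes was 0 without control library 3 or knockdown library 4. The median log2 fold change was 0.12 (0.046 with library size scaling and 0.065 without knockdown library 6), and 25 of the 37 were positive (22 and 21 in those fits). The 7 nuclear core subunits, such as Ndufs1 and Ndufv1, which form the conserved catalytic part with the mitochondrially encoded subunits, had a median log2 fold change of -0.13, with 3 of 7 positive. The 30 others had a median of 0.13, with 22 of 30 positive. The difference between these 2 sets was not tested.

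Ndufv3, which encodes a small supernumerary subunit of the NADH-binding module, was the 1 complex I gene that fell. It read 31.3, 51.7 and 42.2 CPM in controls, and 24.2, 26.1 and 27.4 CPM in the knockdown. Every knockdown library lay below every control, and the controls spread more widely than the knockdown libraries. Means were 41.7 ± 10.2 and 25.9 ± 1.58 CPM (SD, n = 3), a difference of -0.69 ± 0.17 on the log2 scale (standard error, 1.61-fold lower; edgeR adjusted p = 0.0144). The call was lost without knockdown library 4 (-0.64, adjusted p = 0.0809) and without control library 3 (-0.68, adjusted p = 0.0504). Ndufv3 (chr17:31520115-31531326) makes a short and a long protein by alternative splicing, and counts per gene do not separate these forms.

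Ndufa9, a subunit of the arm that reaches the quinone site, was at 43.7, 35.6 and 36.6 CPM in controls and at 50.7, 51.3 and 47.3 CPM after the siRNA. Its groups did not overlap, but the difference of 0.36 ± 0.12 (log2, standard error) missed the threshold (edgeR adjusted p = 0.0556). The call was made with DESeq2 (adjusted p = 0.0368) and, in edgeR, with the GC offset (0.0396), with a stricter filter (0.0466) and without control library 1 (0.47 on the log2 scale, 0.0341). Ndufa12, another supernumerary subunit, was at 44.4, 49.2 and 56.8 CPM in controls and at 57.6, 70.3 and 66.0 CPM in the knockdown. Its lowest knockdown library stood just above its highest control, with a difference of 0.37 ± 0.13 (log2, standard error; edgeR adjusted p = 0.0667, DESeq2 adjusted p = 0.0498).

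Ndufa4 was named as a complex I subunit and has since been assigned to complex IV; it is counted here by its symbol. It had the highest level of all members per length of transcript, at 503 CPM per kb over all libraries. It was at 225, 173 and 212 CPM in controls and at 259, 215 and 304 CPM after the siRNA. Knockdown library 5 fell among the controls, and the difference of 0.35 ± 0.14 (log2, standard error) did not pass (edgeR adjusted p = 0.104). It passed without knockdown library 5 (0.47, adjusted p = 0.0447), with the GC offset (0.0466) and with a length offset (0.0351).

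Ndufa4l2 lies outside the rule and encodes a paralog of Ndufa4 known as a target of hypoxia-inducible factor that restrains complex I. It moved the other way. It was at 35.1, 51.9 and 31.0 CPM in controls and at 21.3, 27.9 and 23.0 CPM after the siRNA, without overlap. The difference was -0.71 ± 0.19 on the log2 scale (standard error, 1.64-fold lower; edgeR adjusted p = 0.0208). The call was lost without knockdown library 4 (adjusted p = 0.108), without knockdown library 6 (0.0572) and without control library 2, in which the gene was highest (-0.46, 0.0587). As a share of the summed level of Ndufa4 and Ndufa4l2 per kb, Ndufa4l2 took 8.91 ± 3.43% in controls and 4.50 ± 1.32% after the siRNA (SD, n = 3), with controls at 7.14, 12.9 and 6.73% and knockdown libraries at 3.89, 6.0 and 3.59%.

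Over all 63 subunits, 12 had groups that did not overlap, 9 of them higher and 3 lower after the siRNA, against 18.1% and 18.3% of all genes tested (36.4% in either direction). In complex I the higher ones were Ndufa9, Ndufa10, Ndufa12, Ndufb2 and Ndufb5, and the lower ones included Ndufs8 and Ndufv3. Several of these differences were small against a small spread. Ndufb5, an abundant membrane-arm subunit, was at 147, 152 and 138 CPM in controls and at 161, 157 and 168 CPM after the siRNA (edgeR log2 fold change 0.15 ± 0.099, adjusted p = 0.327). Ndufs8, a core iron-sulfur subunit, was at 34.3, 33.9 and 33.8 CPM and at 31.6, 29.1 and 27.6 CPM (-0.21 ± 0.12, adjusted p = 0.262 by edgeR). Ndufs5 was the lowest complex I member per length, at 10.6 CPM per kb. Its processed copy Ndufs5-ps was counted at 11.0 to 24.1 CPM, beside 4.31 to 9.92 CPM for Ndufs5 itself, and reads may have been split between the 2, so the level of Ndufs5 is uncertain.

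**Figure D3:**
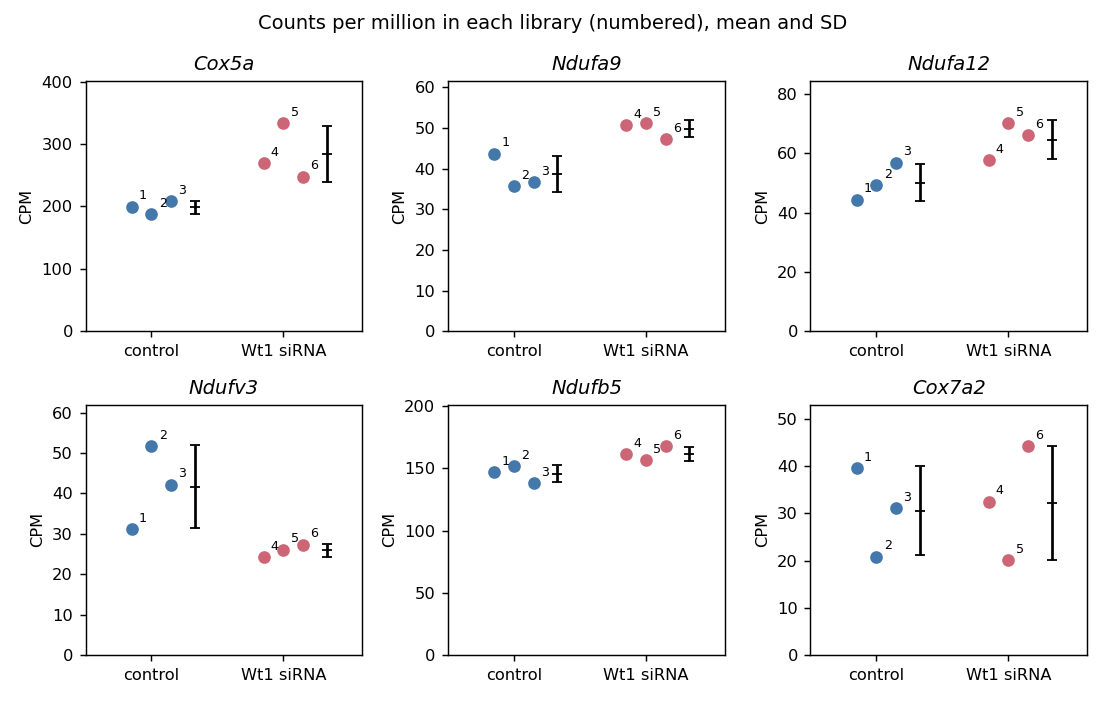
CPM in each library (numbered) for 6 subunits, with mean and SD beside each group, on axes that start at 0. Cox5a, Ndufa9, Ndufa12 and Ndufb5 are higher in all 3 knockdown libraries and Ndufv3 is lower, while the groups of Cox7a2 overlap across 20.1 to 44.2 CPM.

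Complex II, succinate dehydrogenase, also works in the citric acid cycle. None of its 4 subunits passed in either direction, and their median log2 fold change was 0.021, which turned to -0.065 with library size scaling and ranged from -0.047 (without library 2) to 0.10 (without library 5) with 1 library left out. Sdha, the flavoprotein, was at 111, 99.2 and 94.8 CPM in controls and at 112, 98.3 and 116 CPM after the siRNA (log2 fold change 0.096, 95% interval -0.15 to 0.34). Sdhb, the iron-sulfur subunit, was at 69.6, 95.2 and 77.6 CPM and at 84.8, 101 and 99.0 CPM (0.23, interval -0.056 to 0.52). For both genes the groups overlapped. Of the membrane anchors, Sdhc was at 66.1, 47.3 and 58.0 CPM and at 58.5, 47.3 and 59.1 CPM (-0.055, interval -0.37 to 0.26). Sdhd was at 111, 84.7 and 105 CPM and at 89.9, 80.0 and 102 CPM (-0.15, interval -0.44 to 0.14) and was the highest of the 4 per length, at 77.6 CPM per kb. The 95% intervals of all 4 lay within a 1.5-fold change in either direction.

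Complex III, the cytochrome bc1 complex, had 9 members and no call in either direction. Its median log2 fold change was 0.23, and 8 of 9 were positive, the exception being Uqcrh. With library size scaling the median was 0.14, with 8 of 9 positive. At an unadjusted p under 0.05 there were 2 higher, Uqcr11 and Uqcrb, and none lower. Uqcr11, a small accessory subunit, was at 52.3, 52.0 and 49.6 CPM in controls and at 60.1, 57.9 and 66.4 CPM after the siRNA. Its groups did not overlap, and the difference was 0.26 ± 0.11 (log2, standard error; edgeR adjusted p = 0.122). Uqcrb, a subunit near the ubiquinone site, was at 43.0, 53.8 and 50.1 CPM and at 51.2, 63.9 and 67.5 CPM, with overlap (0.31 ± 0.14, edgeR adjusted p = 0.135). The catalytic subunits Cyc1 (cytochrome c1) and Uqcrfs1 (the Rieske iron-sulfur protein) had log2 fold changes of 0.23 and 0.12, with adjusted p = 0.237 and 0.568 in edgeR. Uqcrh, the hinge protein, was highest per length at 136 CPM per kb and varied widely within each group, at 84.7, 51.6 and 61.7 CPM and at 65.4, 43.1 and 80.4 CPM. Its log2 fold change was -0.069 with a 95% interval of -0.54 to 0.41.

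Complex IV, cytochrome c oxidase, had 18 members, of which 13 were tested, 1 rose and none fell. The median log2 fold change was 0.039, and 10 of 13 were positive. This direction did not hold: with library size scaling 5 of 13 were positive and the median was -0.043, and the median was also negative without knockdown library 6 (-0.034, 6 positive) and without control library 3 (-0.012, 6 positive). It rose to 0.10, 0.13, 0.13 and 0.14 without library 4, 5, 1 or 2, and was 0.011 with the GC offset, 0.060 with the length offset and 0.062 with the stricter filter. Cox5a, which encodes a nuclear subunit on the matrix side of the enzyme, was at 200, 188 and 209 CPM in controls and at 269, 334 and 248 CPM after the siRNA. Every knockdown library lay above every control, with library 5 the highest. Means were 199 ± 10.5 and 284 ± 45.0 CPM (SD, n = 3), a difference of 0.51 ± 0.12 on the log2 scale (standard error, 1.43-fold higher; edgeR adjusted p = 0.0126). Without knockdown library 5 the difference was 0.38 and the call was lost (adjusted p = 0.0553). Cox5a was the third highest member per length, at 374 CPM per kb. Cox5b, the other subunit of that name, was at 44.8, 28.1 and 29.4 CPM and at 33.2, 30.8 and 38.0 CPM, with a log2 fold change of -0.0048 and a 95% interval of -0.39 to 0.38.

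The other complex IV genes whose groups did not overlap were Cox6c and Cox7a2l. Cox6c was at 79.9, 81.9 and 82.8 CPM in controls and at 87.3, 90.0 and 91.4 CPM after the siRNA, a small step with little spread (0.14 ± 0.099, edgeR adjusted p = 0.382). Cox7a2l encodes a Cox7a-like protein that links complexes III and IV into supercomplexes. It was at 103, 85.5 and 96.1 CPM and at 109, 106 and 115 CPM (0.21 ± 0.11, edgeR adjusted p = 0.206). Per kb, Cox7a2l took 65.6 ± 5.09% of its sum with Cox7a2 in controls and 67.8 ± 7.58% in the knockdown (SD, n = 3).

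The isoform pairs of complex IV showed the widely expressed form far above the tissue-restricted one in every library. Per kb of transcript, Cox4i1 was at 132 ± 22.7 in controls and 135 ± 21.5 after the siRNA (CPM per kb, SD, n = 3), and Cox4i2, the form known from lung and from low oxygen, at 3.31 ± 1.13 and 3.32 ± 1.06. Cox4i2 thus took 2.47 ± 0.767% of the pair in controls and 2.47 ± 1.05% in the knockdown. Cox7a1, the heart and skeletal muscle form of Cox7a, was at 0.494, 0.493 and 0.263 CPM in controls and at 0.0744, 0 and 0.595 CPM after the siRNA. Per kb it reached at most 1.35 CPM, while Cox7a2 was at 30.5 to 67.1 CPM per kb.

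The 5 members that did not pass the filter on low counts were Cox6a2, Cox6b2, Cox7b2, Cox8b and Cox8c, which are known from striated muscle or testis. Cox8b and Cox8c had 0 counts in all 6 libraries, where 3 counts correspond to 0.0935 to 0.115 CPM. Cox6a2 had 5, 5 and 3 counts in controls and 0, 2 and 0 after the siRNA, while Cox6a1 stood at 393 ± 71.2 and 402 ± 56.6 CPM per kb (SD, n = 3). Cox6b2 had 39, 6 and 9 counts and then 3, 10 and 22, and Cox7b2 had 0, 10 and 0 and then 0, 0 and 6. Markers of striated muscle summed to 1.17 to 2.52 CPM in controls and 0.254 to 1.97 CPM in the knockdown.

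**Figure D4:**
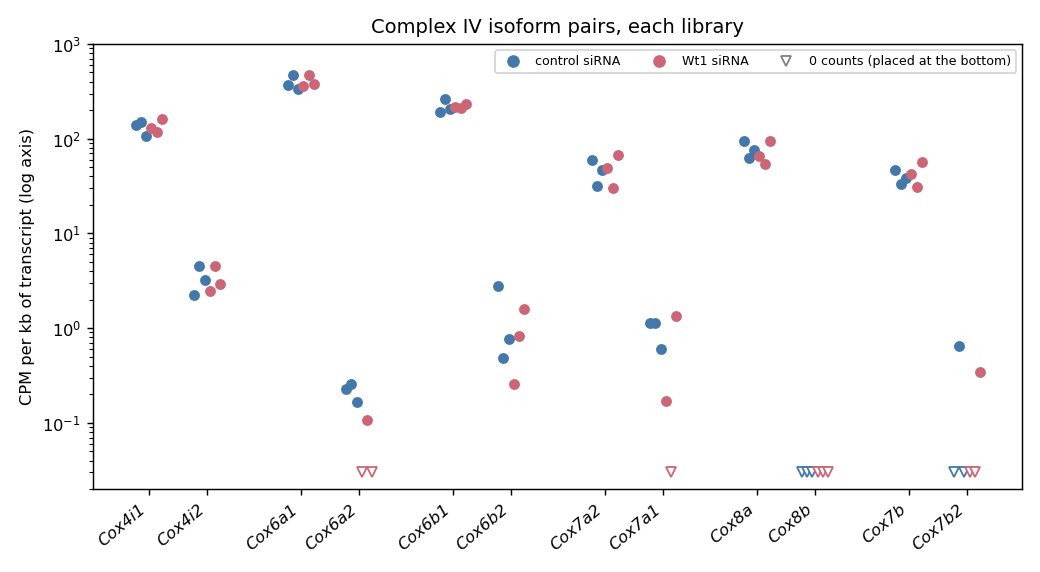
Level of each form of 6 complex IV isoform pairs in each library, in CPM per kb of transcript on a log axis, with blue for control siRNA and red for Wt1 siRNA. Open triangles at the bottom are libraries with 0 counts. In each pair the first form, such as Cox4i1 at 106 to 160, stands above the second, such as Cox4i2 at 2.24 to 4.52.

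The subunits differed in how much they varied within a group. The median coefficient of variation was 14.9% in controls and 12.9% in the knockdown, beside 14.9% and 12.7% over all genes tested. The 7 core subunits of complex I had a median of 3.24% in controls and 10.3% in the knockdown. Cox6c varied by 1.83% and 2.34%, and Ndufb5 by 4.74% and 3.44%. At the other end Ndufc1 varied by 34.2% and 31.8%, Cox7a2 by 30.8% and 37.4%, and Uqcrh by 25.7% and 29.8%.

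A shared pattern was seen in this spread, described after the values were known. Ndufc1 was at 32.9, 16.0 and 25.4 CPM in libraries 1 to 3 and at 26.6, 18.9 and 36.1 CPM in libraries 4 to 6, so library 1 was above library 2 and library 6 above library 5. This order held for 32 of the 63 subunits (50.8%), against 33.2% of all genes tested and 70.9% of 79 cytosolic ribosomal protein genes. Another 13 subunits, among them Ndufb8, Ndufa2 and Cox4i2, were lower in both library 1 and library 6. Over all genes tested, 4393 of 14190 were higher in neither of these libraries. The 32 had a median transcript length of 629 bp and a median GC content of 49.6%, the 13 a median of 838 bp and 54.9%. The other 18, with 1 ratio in each direction, had medians of 812 bp and 49.6%. For Cox7a2, at 39.7, 20.9 and 31.1 CPM and then 32.5, 20.1 and 44.2 CPM, the groups overlapped, whereas those of Cox7a2l, Uqcr11, Ndufa10 and Ndufa12, which follow either order, did not. The part of transcript length or GC content in this order was not tested. The 32 include Cox7a1, which was nearly tied between libraries 1 and 2.

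**Figure D5:**
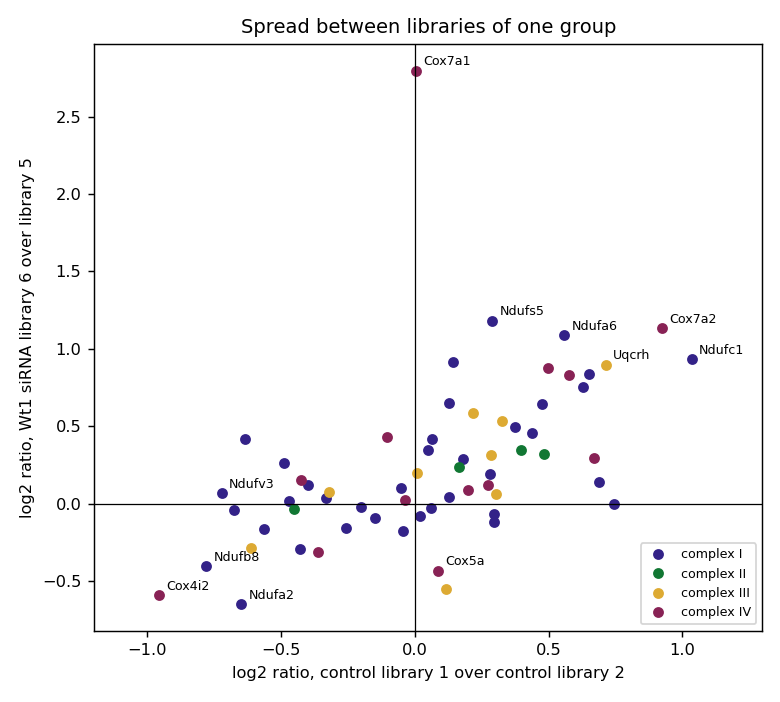
Log2 ratio of control library 1 over control library 2 (horizontal) against that of knockdown library 6 over library 5 (vertical) for 63 subunits, coloured by complex; Cox7a1, at the top, has under 1 CPM in every library. Both ratios are between libraries given the same siRNA, and 32 subunits have both ratios above 0, among them Ndufc1, Cox7a2 and Uqcrh.

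Genes that surround the chain were counted from lists chosen for this purpose, and read against the 19.3% called among all genes. Of 15 ATP synthase genes none passed in either direction, with a median log2 fold change of 0.077 (0.13 without library 5, and -0.010 with library size scaling). Assembly factors of complex I (16 genes) and complex II (4 genes) gave no call, although 1 was higher for complex I without control library 3, with the GC offset and without the filter. For complex III assembly, 1 of 6 fell, Uqcc1 (-0.59, edgeR adjusted p = 0.0489), a call lost on leaving out any single library except control library 2, with limma-voom (adjusted p = 0.0514) and with robust shrinkage in edgeR (0.0504). All 6 had a negative log2 fold change, with a median of -0.36 (-0.14 with the stricter filter and -0.20 without library 2).

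For complex IV assembly, 3 of 23 rose (Coa5, Cox11 and Cox18) and 1 fell (Cmc1), and the 3 became 1 without any of libraries 3, 4, 5 and 6 and with library size scaling. Coa5, a complex IV assembly factor, was at 191, 195 and 215 CPM in controls and at 288, 315 and 263 CPM after the siRNA (0.53 ± 0.11, edgeR adjusted p = 0.00528). Cmc1, which accompanies the mitochondrially encoded subunit COX1, was at 22.9, 23.0 and 27.6 CPM and at 13.5, 13.8 and 14.1 CPM (-0.83 ± 0.14, edgeR adjusted p = 0.00208). Both calls held without any single library. Of 14 genes for cytochrome c and coenzyme Q, 1 rose, Coq10b (0.56, edgeR adjusted p = 0.00536), and 1 fell, Coq9 (-0.66, edgeR adjusted p = 0.033). The call of Coq9 was lost without any of libraries 1, 2, 4 and 6, and 2 genes were higher without library 2 or library 6, with DESeq2, with the GC offset and without the filter.

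In the citric acid cycle 2 of 14 genes rose and none fell (1 fell with library size scaling), with a median of 0.17 (0.083 with that scaling, 0.080 without library 6 and 0.074 without library 2). Cs, citrate synthase, was at 205, 207 and 216 CPM in controls and at 275, 293 and 300 CPM after the siRNA (0.47 ± 0.097, edgeR adjusted p = 0.00573). Dlst, a subunit of oxoglutarate dehydrogenase, rose by 0.40 ± 0.11 (edgeR adjusted p = 0.0207), a call lost without any of libraries 1, 4 and 5. In glycolysis 4 of 17 genes fell (Pdk1, Pkm, Pfkl and Eno1) and none rose, with a median of -0.21. This count was 0 without library 4, 2 without library 5, 1 without library 6 and 2 without library 2. Pdk1, which inhibits pyruvate dehydrogenase, was at 117, 139 and 143 CPM and at 90.3, 101 and 82.8 CPM (-0.55 ± 0.12, edgeR adjusted p = 0.00747; 0.052 without library 4). Pkm, pyruvate kinase, fell by 0.37 on the log2 scale (edgeR adjusted p = 0.0244; 0.108 without library 4 and 0.0757 without library 6).

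Of 22 tested regulators of mitochondrial biogenesis, 2 passed as higher and none as lower, and the median was 0.10. Ppargc1a, Nrf1, Gabpa and Tfam, which drive transcription of respiratory genes or of mitochondrial DNA, had log2 fold changes of 0.054, 0.0044, 0.025 and 0.063, none past the threshold. Polg, the mitochondrial DNA polymerase, passed at 0.37 ± 0.12 (edgeR adjusted p = 0.0407) but not without any of libraries 1, 2, 4, 5 and 6, nor with library size scaling (0.29, adjusted p = 0.103). Esrrg, an estrogen-related receptor, passed (edgeR adjusted p = 0.0293) from 0.0926, 0 and 0 CPM to 0.558, 0.471 and 0.814 CPM, too low for a fold change, and its call was lost without any of libraries 2, 3, 4, 5 and 6 and without the filter. The count of 2 was accordingly 0 without library 2, 4, 5 or 6 and 1 without library 1 or 3, with library size scaling and under either change of the filter.

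Of 22 genes for mitochondrial import and folding, 4 rose (Hspe1, Hspa9, Timm8a1 and Timm23) and 1 fell (Hspd1), and the 4 became 1 without library 4 and 2 without any of libraries 1, 2, 5 and 6 or with library size scaling. Without library 6 a second gene fell. Of 12 genes for mitophagy and mitochondrial dynamics, 2 rose (Dnm1l and Sqstm1) and 1 fell (Bnip3l). Dnm1l, which divides mitochondria, rose by 0.47 ± 0.11 (edgeR adjusted p = 0.0125; 0.0737 without library 4). Sqstm1, a mitophagy receptor, rose by 0.43 ± 0.12 (edgeR adjusted p = 0.0238), a call lost without any single library except library 2 and with library size scaling (0.34, adjusted p = 0.0591). The 2 higher became 0 without library 4 and 1 without any of libraries 1, 3, 5 and 6, and the 1 lower became 0 without any of libraries 3, 4, 5 and 6. With library size scaling 1 rose and 2 fell. Of 15 genes of the mitochondrial unfolded protein response and the ATF4 response, 9 rose and none fell, with a median of 0.77 (0.97 without library 2). This list pools the 2 responses and does not separate them. It does not hold the mitochondrial chaperone genes Hspd1, which fell, and Hspe1 and Hspa9, which rose, as these were counted with import and folding. Asns, asparagine synthetase, was at 128, 126 and 121 CPM in controls and at 274, 288 and 250 CPM after the siRNA (1.11 ± 0.10, edgeR adjusted p = 4.88e-05). Gdf15, a secreted stress cytokine, was at 7.25, 12 and 5.90 CPM and at 40.9, 38.3 and 37.1 CPM (2.21 ± 0.22, edgeR adjusted p = 8.37e-05). Of the 79 cytosolic ribosomal protein genes 2 rose (Rpl22 and Rps25) and none fell, with a median of 0.17. These 2 became 1 without library 2, 4 or 6 and 4 without library 1, and 1 fell without library 6. The call of Rpl22 was lost without library 5 (edgeR adjusted p = 0.0575), and that of Rps25 without any of libraries 2, 3, 4 and 6 (0.0708 to 0.131) and with library size scaling (0.103). The count of 2 was 1 with library size scaling and 4 with limma-voom and with the GC offset. It was 5 without the filter and 6 with DESeq2. Over all genes, 1284 were called higher in the result given. These alternatives, in the same order, called 855, 1371, 1509, 1396 (of 17869 tested) and 1575 genes higher.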

How the data were processed

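RNA of cultured fibroblasts was sequenced in 6 libraries. The authors deposited 1 table of raw read counts per gene for all libraries, with Entrez gene IDs. Tools listed in the submitters' processing notes are TopHat, DESeq, CASAVA 1.8 and bcl2fastq, with the build mm10 (GRCm38). The counter, the annotation and the strand setting were not found in these sources, so reads of overlapping genes and of near-identical copies may be shared. Symbols came from RefSeq for GRCm38.p6 (23976 of 24061 IDs) and GENCODE (7 IDs). Counts of the 3 Wt1 siRNA libraries were compared with those of the 3 control libraries in edgeR 4.0.16 under R 4.3.3 (TMM, filterByExpr, quasi-likelihood F test, Benjamini-Hochberg over the 14190 genes kept, threshold 0.05). Standard errors of edgeR fold changes were derived from the log2 fold change and the quasi-likelihood F statistic. Intervals are 95% from these standard errors. CPM per kb divides by the median length of protein-coding GENCODE transcripts, which need not be the forms these cells use. The common biological coefficient of variation was 0.191. Ratios between libraries used a pseudocount of 0.1 CPM. The code was tested on simulated counts.

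Genes named were Wt1, Ndufa4l2, the Sdh genes, per complex up to 4 members passing in each direction or else the 2 with the smallest p, isoform pairs, the highest member per kb and up to 2 calls per list. Others (such as Ndufb5, Ndufs8, Cyc1, Cox5b and Cox6c) were named for their role or after their values were seen. Members and lists were chosen with earlier results of these data known. Alternatives were library size scaling, RLE scaling, DESeq2 1.42.0, limma-voom (limma 3.58.1), no filter, a stricter filter, robust shrinkage, offsets for transcript length and GC content, and leaving out each library. The values of 1 complex I subunit are not reported here, although it is in the counts.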

Additional observations from a re-analysis of the deposited data

How the results depend on the processing

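No paired analysis was possible because the groups share no replicate numbers (libraries 1 to 3 and 4 to 6). Under the 15 alternatives, the count of subunits higher was 1 in the result given, 3 with DESeq2, 4 with the GC offset, 2 with the length offset and 2 with the stricter filter, and 1 to 3 with 1 library left out (without library 5 the 1 was Ndufa4 and not Cox5a). The count lower was 0 to 1 with 1 library left out, 0 without library 4 or library 3. The median log2 fold change was 0.046 with library size scaling and 0.078 to 0.16 with 1 library left out. The ratio of summed levels was 1.04 with library size scaling and 1.08 to 1.13 with 1 library left out. Of 41 genes named by rule, 23 passed, 9 of them in every setting, and 15 passed in none. The sign turned 26 times in 8 genes, none of which passed. With library size scaling the log2 fold change was -0.043 for Cox4i1, -0.074 for Cox4i2, -0.053 for Cox6a1, -0.074 for Cox6b1, -0.0040 for Cox7a2. With the GC offset it was -0.014 for Cox4i2 and -0.015 for Cox6a1. With 1 library left out it ranged from -0.096 to 0.14 for Cox4i1, -0.27 to 0.29 for Cox4i2, -0.087 to 0.19 for Cox6a1, -0.073 to 0.15 for Cox6b1, -0.21 to 0.33 for Cox7a2, -0.37 to 0.063 for Cox8a, -0.17 to 0.069 for Sdhc and -0.28 to 0.16 for Uqcrh. The cause was not tested. Depth limits what can be said of the isoforms under 1 CPM.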

Other observations

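Hspd1 and Hspe1, which encode the mitochondrial chaperonin HSP60 and its co-chaperonin HSP10 and lie head to head on chromosome 1 (chr1:55077833-55088243 and chr1:55088148-55091317 in GRCm38), moved in opposite directions. Hspd1 was at 241, 223 and 269 CPM in controls and at 111, 112 and 118 CPM after the Wt1 siRNA, a difference of -1.10 ± 0.11 on the log2 scale (standard error; edgeR adjusted p = 7.11e-05). Hspe1 was at 68.3, 53.4 and 72.8 CPM and at 90.3, 95.3 and 115 CPM, a difference of 0.63 ± 0.14 (edgeR adjusted p = 0.0084). Groups did not overlap for either gene, and both calls held in all 15 alternatives. The annotated spans overlap at their 5' ends, and reads there cannot be told apart without strand.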
